A study of Mus musculus with 16 samples.

Results

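The set described here is 10 immediate early genes: Fos, Fosb, Jun, Junb, Egr1, Nr4a1, Klf6, Ier2, Dusp1 and Zfp36. They were chosen by symbol from a list, with symbols assigned to the Ensembl identifiers of the deposited tables, and are 10 of 37620 gene identifiers in each table. All 10 passed the filter on low counts and were among the 16558 genes tested. The RNA came from the proximal jejunum, the upper stretch of the small intestine below the duodenum, of male CBA/J mice aged 8 weeks. Diet and radiation were crossed in 4 groups of 4 libraries. They were mice on a methionine-supplemented diet (300%) given 8.5 Gy of gamma radiation, mice on that diet given 0 Gy, mice on a methionine-adequate diet given 8.5 Gy, and mice on the adequate diet given 0 Gy. They are called irradiated supplemented, unirradiated supplemented, irradiated adequate and unirradiated adequate mice here. The labels give a period of 6 days without saying whether it runs on diet, after irradiation or both. They name no animal, cage or day of dissection, so whether each library is a separate animal is not stated. The p-values weigh differences between groups against the spread between these libraries.

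Immediate early genes are transcribed within minutes of a stimulus, without new protein synthesis, because the factors that switch them on (serum response factor with its partners, and CREB) are already in the cell and are activated by kinases such as ERK. Their messenger RNAs are short-lived, and handling of an animal or of dissected tissue is known to move them. Fos and Fosb proteins pair with Jun or Junb to form the AP-1 transcription factor. Egr1 and Klf6 are zinc finger transcription factors and Nr4a1 is an orphan nuclear receptor. Ier2 is a nuclear protein induced by growth factors. Dusp1 and Zfp36 act in feedback: Dusp1 is a phosphatase that switches off MAP kinases, and Zfp36 (tristetraprolin) binds AU-rich messenger RNAs, many of them made by early genes, and speeds their decay.

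The promoters of 4 genes are shown because Junb, Nr4a1 and Zfp36 were lower in irradiated than in unirradiated supplemented mice, whereas Klf6 was higher in irradiated than in unirradiated adequate mice. Each run is the 250 bases before the RefSeq transcription start in build GRCm38.p6, written 5′ to 3′ on the strand of the gene. Capitals mark matches, on either strand, to the CREB core TGACG, to the Egr-type letters GCGNGGGCG and to the CArG box, the serum response factor motif; TGANTCA, an AP-1 motif, was also searched. The positions are chr8:84978749-84978998 (minus strand) for Junb, chr15:101266596-101266845 (plus) for Nr4a1, chr7:28379229-28379478 (minus) for Zfp36 and chr13:5861239-5861488 (plus) for Klf6.
Junb: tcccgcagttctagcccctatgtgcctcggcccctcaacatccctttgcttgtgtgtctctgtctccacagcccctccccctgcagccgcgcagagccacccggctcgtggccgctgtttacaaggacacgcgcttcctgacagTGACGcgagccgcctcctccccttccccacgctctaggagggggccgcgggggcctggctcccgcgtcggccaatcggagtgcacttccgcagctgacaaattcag
Nr4a1: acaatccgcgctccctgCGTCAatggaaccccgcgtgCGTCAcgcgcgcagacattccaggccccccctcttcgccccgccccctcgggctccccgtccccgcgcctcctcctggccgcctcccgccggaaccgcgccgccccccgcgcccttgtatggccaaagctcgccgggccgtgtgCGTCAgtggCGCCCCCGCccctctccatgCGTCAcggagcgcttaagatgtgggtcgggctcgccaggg
Zfp36: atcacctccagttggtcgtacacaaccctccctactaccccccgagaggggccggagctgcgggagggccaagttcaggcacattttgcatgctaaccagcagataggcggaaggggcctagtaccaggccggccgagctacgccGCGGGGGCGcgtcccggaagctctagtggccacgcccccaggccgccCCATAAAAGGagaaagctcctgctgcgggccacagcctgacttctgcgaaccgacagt
Klf6: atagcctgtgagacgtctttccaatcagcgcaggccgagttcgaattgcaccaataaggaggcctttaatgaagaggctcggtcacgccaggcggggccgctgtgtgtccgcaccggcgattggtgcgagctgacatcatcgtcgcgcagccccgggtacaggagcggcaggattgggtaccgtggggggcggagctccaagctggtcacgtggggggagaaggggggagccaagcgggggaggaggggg
Junb held a TGACG that began 106 bases before the start. Nr4a1 held 4 TGACG matches, at 233, 213, 69 and 40 bases before the start, all of them on the other strand and so printed as CGTCA, with a GCGNGGGCG match 60 bases before it. Zfp36 held a GCGNGGGCG match and a CArG box, and Klf6 held none of the 4 motifs in this window. Jun, whose promoter is not printed, also held none of the 4. Promoters of 8 of the 10 genes were searched; those of Egr1 and Ier2 were not used here. TGACG was in 5 of the 8 (17.8% of all 32851 promoters), GCGNGGGCG in 3 (4.7%), the CArG box in 1 (1.47%) and TGANTCA in 0 (6.75%). In Dusp1 a pair of TGACG matches overlapped, on opposite strands. A match describes letters in a short window and says nothing about binding.

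Library by library, most of the 10 genes were high or low together in the same libraries. To place each library, the log2 CPM (counts scaled to library size after TMM) of each gene was centred on its mean over the 16 libraries and averaged over the 10 genes. The mean was -0.82, -0.30, -0.15 and -0.23 in irradiated supplemented mice, against 0.51, -0.57, 0.81 and 1.58 in unirradiated supplemented mice. On the adequate diet it was 0.11, 0.08, 0.25 and 0.02 in irradiated mice, against -0.79, 0.35, -0.50 and -0.34 in unirradiated mice. Unirradiated supplemented replicate 4 held the highest level of all 16 libraries for 9 of the 10 genes, Klf6 being the exception, and replicate 2 of that group held its lowest level for all 10. In unirradiated adequate mice replicate 2 was highest for 8 of the 10. The summed CPM of the 10 genes ran between 268 and 452 in irradiated supplemented mice, against 356 to 1178 in unirradiated supplemented mice, and between 415 and 575 in irradiated adequate mice, against 347 to 529 in unirradiated adequate mice.

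**Figure D1:**
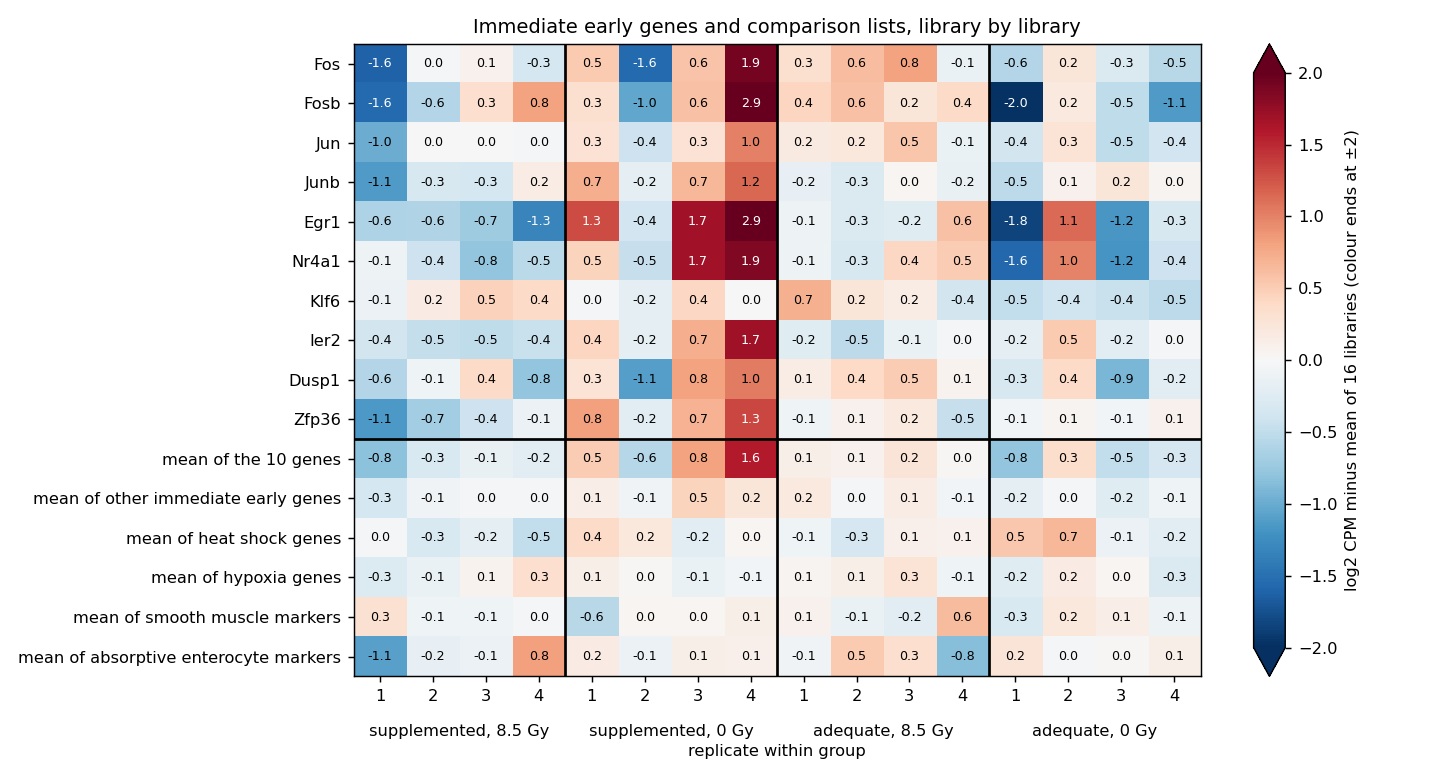
Heat map of log2 CPM minus the mean of 16 libraries for the 10 immediate early genes (upper rows) and for the means of the 10 and of comparison lists (lower rows), with 1 column for each library, grouped by diet and dose; colour ends at ±2. Unirradiated supplemented replicate 4 is high for every gene but Klf6 (mean of the 10 genes 1.58), and replicate 2 of the same group is low (-0.57).

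The libraries held 2566690 to 15510247 estimated counts, and 3 of them (irradiated supplemented replicate 1, irradiated adequate replicate 2 and unirradiated adequate replicate 1) held fewer than 4000000. The lowest means of the 10 genes, in irradiated supplemented replicate 1 (-0.82) and unirradiated adequate replicate 1 (-0.79), were in 2 of those 3 shallow libraries; the part of depth in this was not tested. The 4 unirradiated supplemented libraries had 8772042, 8772636, 9673399 and 9235283 counts, so the highest and the lowest library of that group were of like depth. All 12 absorptive enterocyte markers (among them Fabp1, Apoa1 and Sis) were detected in every library, at a sum of 16415 to 66434 CPM. Counts in single libraries ran between 1 and 176 for Fosb, the lowest of the 10, and between 140 and 2350 for Zfp36. Jun had counts that were not whole in 9 libraries, Nr4a1 in 3 and Fos in 1, which RSEM gives where it splits reads among several matches.

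Spread between libraries of the same group was wide for most of the genes. The SD of log2 CPM about the group means was 0.97 for Egr1, 0.86 for Fos, 1.08 for Fosb and 0.82 for Nr4a1, against a median of 0.30 over all 16558 tested genes. Among genes within 0.5 log2 CPM of the same mean level, Egr1 was at the 99.2 percentile of spread, Fos at 97.7, Dusp1 at 97.1, Nr4a1 at 97.0, Ier2 at 94.4 and Fosb at 94.2. Jun (89.9), Junb (88.8) and Zfp36 (87.5) followed, and Klf6 stood lowest of the 10 at 71.7. For all but Klf6 the SD was above the median of all tested genes.

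**Figure D2:**
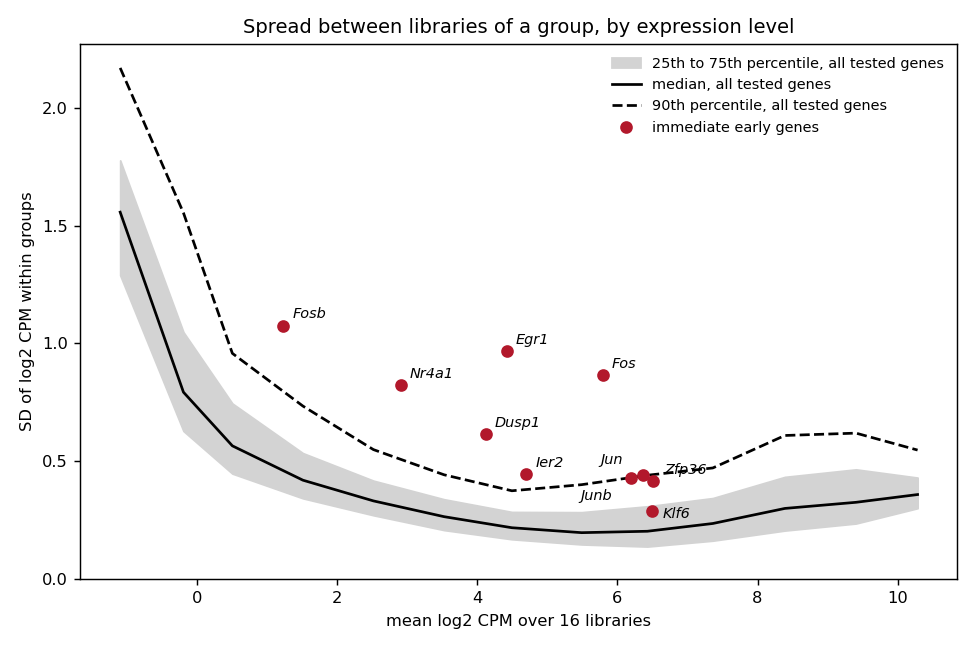
SD of log2 CPM within groups (vertical) against mean log2 CPM over 16 libraries (horizontal); points are the 10 genes, the grey band holds the 25th to 75th percentile of all 16558 tested genes, and the lines are their median and 90th percentile. Egr1 (SD 0.97) and Fos (0.86) stand farthest above genes of like level, and Klf6 (0.29) lies within the band.

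Compared per length (CPM per kilobase of effective length), Zfp36 and Junb were the most abundant and Fosb the least abundant in all 4 groups. In unirradiated supplemented mice Zfp36 stood at 88.4 ± 35.5 CPM per kilobase, Junb at 65.97 ± 23.1, Fos at 48.3 ± 39.7 and Fosb at 1.63 ± 2.03 (SD, n = 4 each). In unirradiated adequate mice Zfp36 stood at 52.4 ± 2.72, Junb at 41.3 ± 8.77, Fos at 22.99 ± 6.60 and Fosb at 0.348 ± 0.243 (SD, n = 4 each). In order of level, Zfp36, Junb, Fos, Jun (40.0 ± 16.01), Ier2 (31.2 ± 17.99), Egr1 (24.2 ± 19.7) and Klf6 (22.5 ± 4.105) each differed from the next by less than 1 SD in unirradiated supplemented mice. Dusp1 (13.3 ± 6.84) and Nr4a1 (6.79 ± 4.32) came next, above Fosb.

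On the supplemented diet, 5 of the 10 genes were lower in irradiated than in unirradiated mice by edgeR's quasi-likelihood test (adjusted p under 0.05), namely Zfp36, Ier2, Junb, Egr1 and Nr4a1, and 0 were higher. Over all genes 15.2% were called, 7.21% lower and 8.03% higher. The median log2 fold change of the 10 was -1.22, against 0.01 over all tested genes. Both dietary comparisons of dose draw on whole tissue, in which fewer cells of a type and less RNA per cell cannot be told apart.

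Zfp36 had 41.1, 56.1, 67.98 and 83.6 CPM in irradiated supplemented mice, against 161, 78.9, 147 and 229.9 CPM in unirradiated supplemented mice (replicates 1 to 4). Irradiated replicate 4 lay above unirradiated replicate 2, and the other libraries of the groups were apart. Its log2 fold change was -1.30 ± 0.26 (SE, adjusted p = 0.0035, edgeR's quasi-likelihood test). Junb, the AP-1 partner of Fos, had 33.2, 58.9, 57.5 and 81.3 CPM in irradiated supplemented mice, against 121, 64.1, 116 and 163 CPM in unirradiated supplemented mice. The same pair of libraries overlapped, and the log2 fold change was -0.997 ± 0.26 (adjusted p = 0.0177, edgeR's quasi-likelihood test).

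Ier2 had 19.95, 18.4, 18.1 and 18.8 CPM in irradiated supplemented mice, against 34.8, 22.4, 42.95 and 83.7 CPM in unirradiated supplemented mice. The irradiated libraries were nearly level, the unirradiated ones spread 3.73-fold, and the groups did not overlap. The log2 fold change was -1.30 ± 0.30 (adjusted p = 0.00912, edgeR's quasi-likelihood test). Egr1 had 13.8, 13.96, 12.95 and 8.34 CPM in irradiated supplemented mice, against 52.8, 16.2, 68.2 and 158 CPM in unirradiated supplemented mice. These groups did not overlap either, although unirradiated replicate 2 lay close to the irradiated libraries; 9.23% of all genes were lower with no overlap in this comparison. Its log2 fold change of -2.60 ± 0.66 (adjusted p = 0.0182, edgeR's quasi-likelihood test) was the largest of the 10. Nr4a1 had 6.75, 5.44, 4.13 and 4.94 CPM in irradiated supplemented mice, against 10.04, 5.24, 23.8 and 26.9 CPM in unirradiated supplemented mice. Unirradiated replicate 2 lay among the irradiated libraries, and the log2 fold change was -1.68 ± 0.53 (adjusted p = 0.0471, edgeR's quasi-likelihood test).

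The other 5 genes did not pass the test on this diet. Fos had 17.9, 54.2, 58.4 and 43.3 CPM in irradiated supplemented mice, against 79.05, 18.5, 82.2 and 208 CPM in unirradiated supplemented mice. The unirradiated libraries covered an 11.3-fold range that took in 3 of the 4 irradiated libraries, and the log2 fold change was -1.14 ± 0.53 (adjusted p = 0.175, edgeR's quasi-likelihood test). Fosb had 0.587, 1.34, 2.76 and 3.88 CPM in irradiated supplemented mice, against 2.72, 0.926, 3.296 and 17.2 CPM in unirradiated supplemented mice, where replicate 4 stood alone. Jun had 41.4, 82.6, 82.6 and 80.95 CPM in irradiated supplemented mice, against 101, 62.01, 101 and 166 CPM in unirradiated supplemented mice. Dusp1 had 11.4, 16.2, 22.4 and 9.89 CPM in irradiated supplemented mice, against 20.8, 7.92, 30.3 and 35.6 CPM in unirradiated supplemented mice. For Jun and Dusp1 the groups overlapped. The log2 fold changes were -1.39 ± 0.69 for Fosb, -0.57 ± 0.27 for Jun and -0.62 ± 0.38 for Dusp1. Klf6 was alone in a positive value, at 0.18 ± 0.19, with 82.4, 100.1, 123 and 117 CPM in irradiated supplemented mice, against 87.4, 79.3, 119 and 89.99 CPM in unirradiated supplemented mice. Adjusted p-values of these last 4 genes ran between 0.18 and 0.574.

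Without unirradiated supplemented replicate 4, the library that stood highest, 2 of the 10 genes were called lower, Ier2 (log2 fold change -0.84, adjusted p = 0.0191) and Zfp36 (-1.05, adjusted p = 0.014, both by edgeR's quasi-likelihood test). Egr1 stood at -1.91 (adjusted p = 0.0622), Junb at -0.79 (0.069) and Nr4a1 at -1.33 (0.144) without it, while Fos moved to -0.44 and Fosb to -0.02. Without replicate 2 of that group, the lowest, 6 genes were called, Fos being added at -1.48 (adjusted p = 0.03). Without irradiated supplemented replicate 3, 2 genes were called, with Egr1 at -2.63 (adjusted p = 0.0519) and Junb at -0.99 (0.0501). Without irradiated supplemented replicate 2, 3 were called. Nr4a1 passed in 4 of 15 alternatives, Egr1 and Junb in 12 of 15 each, and Ier2 and Zfp36 in all 15.

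**Figure D3:**
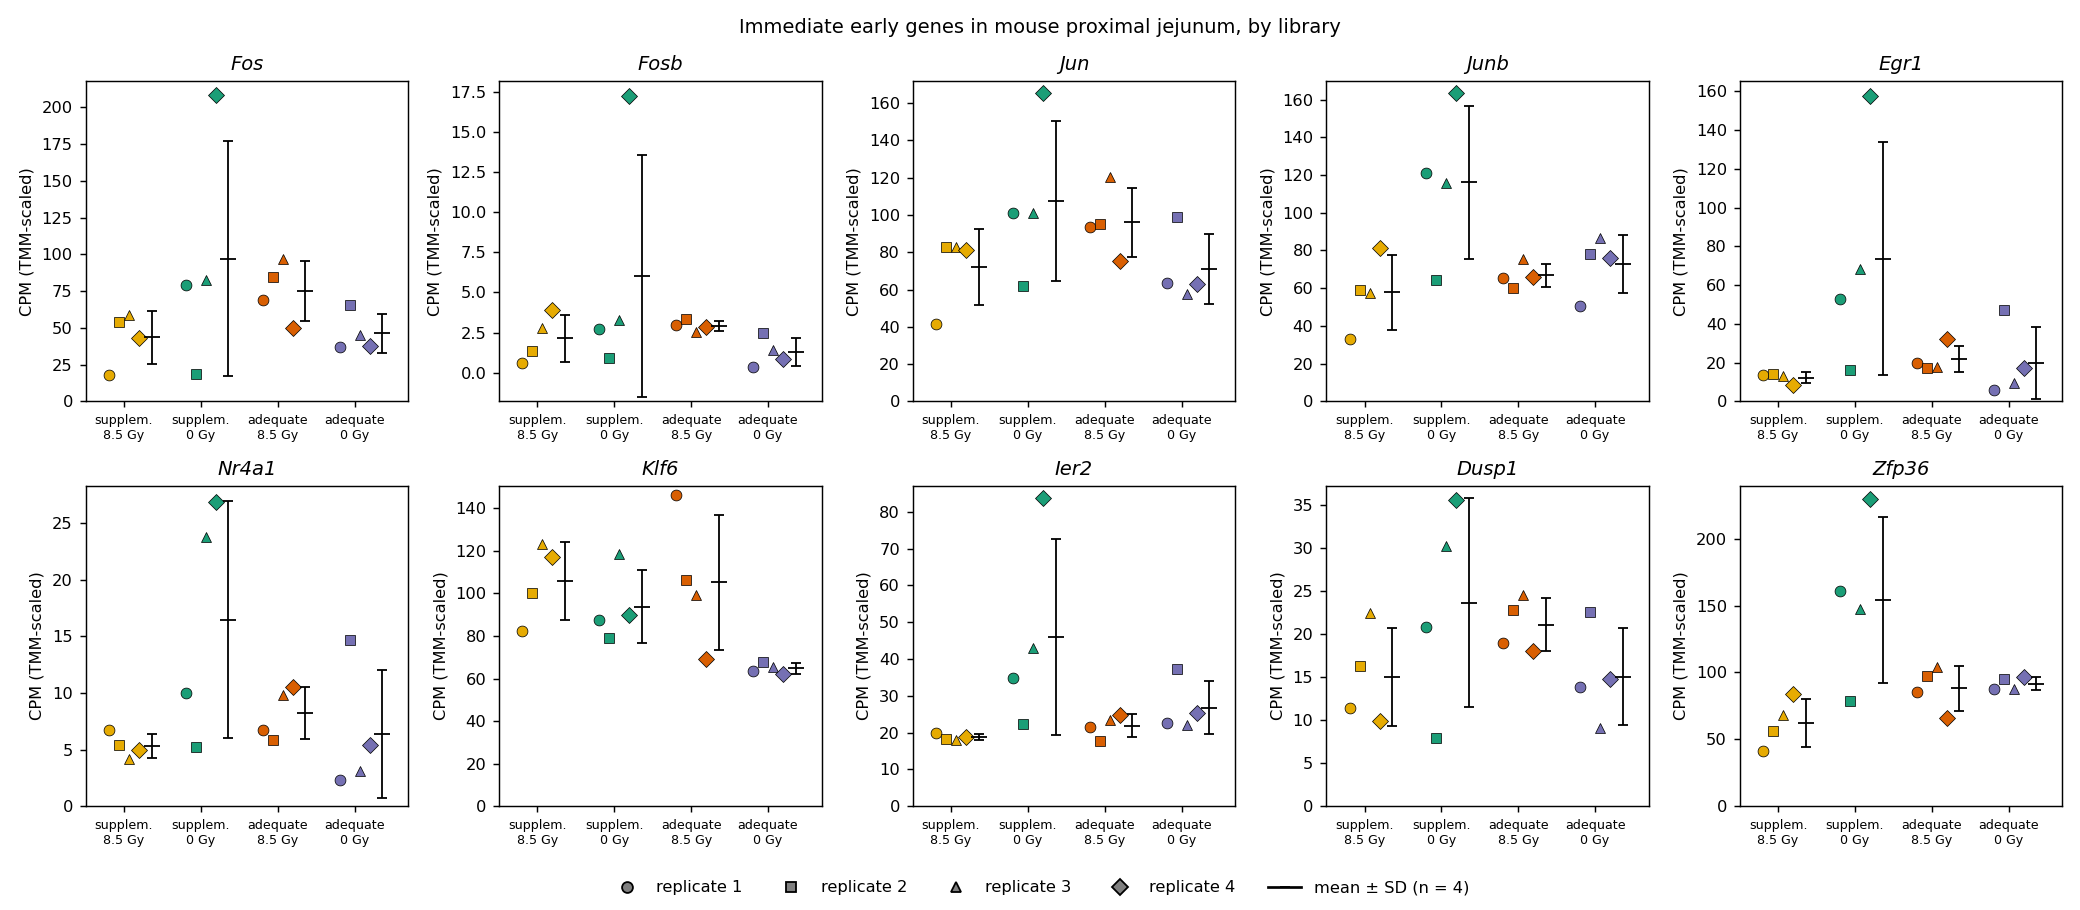
CPM (TMM-scaled) of each of the 10 genes in every library, by group; marker shapes are replicates, and the black bar is the mean ± SD of 4 libraries. In unirradiated supplemented mice replicate 4 is highest for all genes but Klf6 (Egr1 at 158 CPM), and replicate 2 is lowest (Egr1 at 16.2 CPM).

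On the adequate diet, 1 of the 10 genes was higher in irradiated than in unirradiated mice, and 0 were lower, where 13.7% of all genes were called, 7.13% higher and 6.58% lower. The gene was Klf6, with 146, 106, 99.4 and 69.05 CPM in irradiated adequate mice, against 63.6, 68.0, 65.6 and 61.9 CPM in unirradiated adequate mice. The groups did not overlap, but irradiated replicate 4 lay just above the unirradiated libraries and replicate 1 far above them; 9.34% of all genes were higher with no overlap. Its log2 fold change was 0.70 ± 0.19 (adjusted p = 0.0222, edgeR's quasi-likelihood test). Without irradiated adequate replicate 1 it was 0.49 (adjusted p = 0.0981), without unirradiated adequate replicate 1 it was 0.70 (0.0509), without unirradiated adequate replicate 4 it was 0.68 (0.0541), and without the 3 shallow libraries it was 0.69 (0.0689). The median log2 fold change of the 10 genes was 0.37, against 0.01 over all tested genes.

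The 3 AP-1 genes with positive values on the adequate diet did not pass. Fos had 69.05, 84.6, 96.9 and 50.1 CPM in irradiated adequate mice, against 36.8, 65.3, 45.05 and 37.6 CPM in unirradiated adequate mice; irradiated replicate 4 lay below unirradiated replicate 2. The log2 fold change was 0.69 ± 0.54 (adjusted p = 0.433, edgeR's quasi-likelihood test). Fosb had 2.96, 3.32, 2.56 and 2.83 CPM in irradiated adequate mice, against 0.383, 2.47, 1.44 and 0.856 CPM in unirradiated adequate mice, with no overlap. Its log2 fold change was 0.98 ± 0.79 (adjusted p = 0.448, edgeR's quasi-likelihood test). Jun had 93.6, 95.01, 120.5 and 75.5 CPM in irradiated adequate mice, against 63.6, 99.1, 57.8 and 63.2 CPM in unirradiated adequate mice, and its log2 fold change was 0.44 ± 0.28. Unirradiated replicate 2 was the one that reached into the irradiated range for Jun.

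For the remaining 6 genes the 2 groups on the adequate diet overlapped. Egr1 had 19.7, 17.4, 17.9 and 32.1 CPM in irradiated adequate mice, against 5.75, 46.98, 9.38 and 16.9 CPM in unirradiated adequate mice, and Nr4a1 had 6.76, 5.81, 9.83 and 10.5 CPM in irradiated adequate mice, against 2.301, 14.7, 3.09 and 5.42 CPM in unirradiated adequate mice. In both, unirradiated replicate 2 was the highest of the 8 libraries on this diet and unirradiated replicate 1 the lowest. Junb averaged 66.7 ± 6.32 CPM in irradiated adequate mice and 72.7 ± 15.4 CPM in unirradiated adequate mice (SD, n = 4 each). Ier2 averaged 21.9 ± 3.04 CPM in irradiated adequate mice and 26.8 ± 7.14 CPM in unirradiated adequate mice. The feedback genes stood at 21.1 ± 3.08 CPM (Dusp1) and 88.2 ± 16.8 CPM (Zfp36) in irradiated adequate mice, against 15.1 ± 5.61 CPM and 91.5 ± 4.76 CPM in unirradiated adequate mice. The log2 fold changes were 0.08 ± 0.64 for Egr1, 0.30 ± 0.54 for Nr4a1, 0.46 ± 0.39 for Dusp1, -0.13 ± 0.26 for Junb, -0.28 ± 0.30 for Ier2 and -0.06 ± 0.26 for Zfp36, none of them called.

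**Figure D4:**
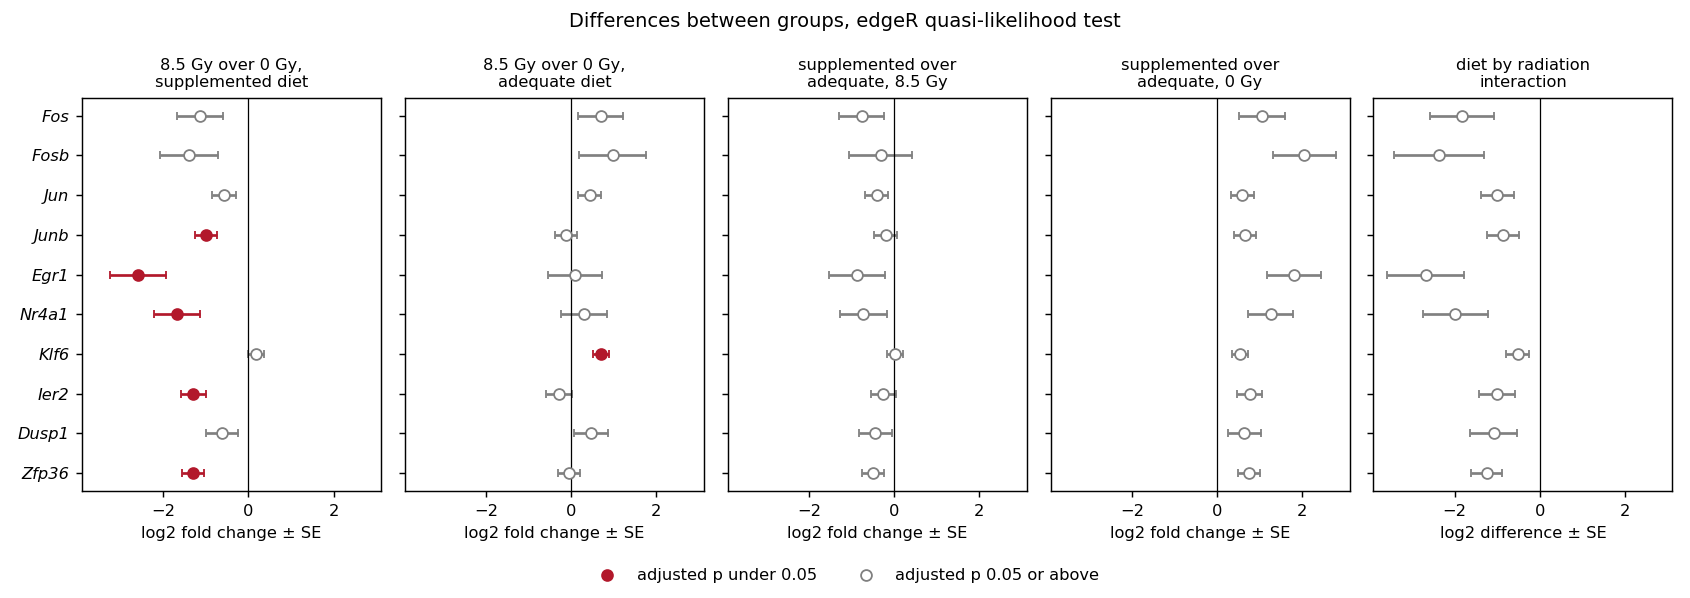
Log2 fold change ± SE of each of the 10 genes (rows) in 5 comparisons (panels), from 16 libraries; filled red points have an adjusted p under 0.05 by edgeR's quasi-likelihood test. The panel of dose on the supplemented diet has 5 red points, that on the adequate diet has 1 (Klf6), and the diet and interaction panels have 0.

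Between the diets in unirradiated mice, 0 of the 10 genes were called, where 0.199% of all genes were (0.169% higher, 0.0302% lower). All 10 had positive values (supplemented over adequate), with a median of 0.76, and 8 had an unadjusted p under 0.05, as did 11.9% of all genes. DESeq2 and limma voom also called 0 of the 10, among 226 and 51 genes called in all. The largest were Fosb at 2.05 ± 0.74, Egr1 at 1.82 ± 0.63 and Nr4a1 at 1.26 ± 0.52, and adjusted p-values of the 10 ran between 0.251 and 0.553 by edgeR's quasi-likelihood test. Klf6, at 87.4, 79.3, 119 and 89.99 CPM in unirradiated supplemented mice, against 63.6, 68.0, 65.6 and 61.9 CPM in unirradiated adequate mice, was the one gene whose groups did not overlap; 4.71% of all genes were higher and 4.43% lower with no overlap (Klf6 0.53 ± 0.19, adjusted p = 0.271). The unirradiated supplemented libraries in this comparison are those of the radiation comparison on that diet, so the values of both share replicate 4. Without that library the difference between diets was smaller for every gene but Klf6. Fosb fell to 0.68 ± 0.53, Egr1 to 1.13 ± 0.57, Nr4a1 to 0.93 ± 0.53 and Ier2 to 0.305 ± 0.203 (SE). Klf6 stood at 0.55 ± 0.21 without it. Most of the 10 moved together by library, so the 8 unadjusted p-values are not independent of each other.

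Between the diets in irradiated mice, 0 of the 10 genes were called, 0 of the 10 had an unadjusted p under 0.05 (5.26% of all genes did), and 0% of all genes were called by edgeR's quasi-likelihood test. DESeq2 called 11 genes and limma voom 0, with 0 of the 10 by either. Values were negative for 9 of the 10, with a median of -0.43. Egr1 had 13.8, 13.96, 12.95 and 8.34 CPM in irradiated supplemented mice, against 19.7, 17.4, 17.9 and 32.1 CPM in irradiated adequate mice, and the groups did not overlap; 1.7% of all genes were lower with no overlap (Egr1 -0.86 ± 0.66, adjusted p = 0.952). Zfp36 stood at -0.49 ± 0.26 (adjusted p = 0.937), the smallest p of the 10.

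The difference between the radiation effects on the 2 diets was tested as an interaction. By edgeR's quasi-likelihood test 0 of the 10 genes and 0% of all genes were called. The value was negative for all 10, with a median of -1.17 against 0 over all genes, and 8 of the 10 had an unadjusted p under 0.05, as did 4.46% of all genes. Most of the 10 moved together by library, so these p-values are not independent of each other. Without unirradiated supplemented replicate 4 the value shrank for every gene but Klf6. Fosb moved from -2.37 to -1.01, Fos from -1.82 to -1.13 and Ier2 from -1.015 to -0.554. DESeq2 called 2 genes in all and limma voom 0, and 0 of the 10 by either. Zfp36 stood at -1.25 ± 0.36 (adjusted p = 0.79), Egr1 at -2.68 ± 0.91 and Nr4a1 at -1.98 ± 0.76 (adjusted p = 1 for both). Calls on 1 diet and not on the other are therefore not shown to differ between diets.

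Averaged over both diets, irradiated mice had lower Zfp36 (-0.68 ± 0.18, adjusted p = 0.01), Ier2 (-0.79 ± 0.21, adjusted p = 0.0107) and Junb (-0.56 ± 0.18, adjusted p = 0.0293), and higher Klf6 (0.44 ± 0.13, adjusted p = 0.0202), by edgeR's quasi-likelihood test. That is 3 of 10 lower and 1 higher, where 15.3% and 15.7% of all genes were called. The 2 diets did not contribute alike to these averages. Zfp36 stood at -1.30 on the supplemented and -0.06 on the adequate diet, Ier2 at -1.30 and -0.28, and Junb at -0.997 and -0.13. Klf6 stood at 0.18 and 0.70. An averaged call therefore does not show a change on each diet. Egr1, at -1.26 ± 0.45, had an adjusted p of 0.0504. Without irradiated adequate replicate 1, 2 of the 10 were called, Klf6 standing at 0.33 (adjusted p = 0.0509) and Junb at -0.56 (0.0527). The averaged call of Junb held in 13 of 22 alternatives, that of Klf6 in 21, and those of Ier2 and Zfp36 in all 22. Averaged over both doses, 0 of the 10 differed between diets by edgeR's quasi-likelihood test, all 10 values being positive, 0 with an unadjusted p under 0.05 (13.3% of all genes); 0.0966% of all genes were called (0.0423% higher, 0.0544% lower), and DESeq2 (288 genes) and limma voom (12) called 0 of the 10.

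Other immediate early genes were counted in the same way. Of 45 listed, 42 were tested, and Arc, Egr4 and Fosl1 were not. On the supplemented diet, where 7.21% of all genes were called lower and 8.03% higher, 6 of the 42 were lower and 1 higher in irradiated than in unirradiated mice. Their median log2 fold change was -0.41. Lower were Dusp4, a MAP kinase phosphatase (-1.76 ± 0.30, adjusted p = 0.00126), Csrnp1, a nuclear protein (-1.29 ± 0.24, adjusted p = 0.00201), and Nfkbiz, an atypical I-kappa-B protein (-0.64 ± 0.21, adjusted p = 0.0475), all by edgeR's quasi-likelihood test. On the adequate diet, where 7.13% of all genes were called higher and 6.58% lower, 3 of the 42 were higher and 1 lower. Their median was 0.16. Per1, a clock gene that stimuli also induce, was higher there (1.27 ± 0.28, adjusted p = 0.00693), and Nfkbiz was lower (-0.93 ± 0.21, adjusted p = 0.00823, edgeR's quasi-likelihood test). Between the diets in unirradiated mice 0 of the 42 were called by edgeR's quasi-likelihood test (0.199% of all genes). Of the 42, 31 were positive and 13 had an unadjusted p under 0.05 (11.9% of all genes). In the interaction 0 were called (0% of all genes), 34 being negative and 12 having an unadjusted p under 0.05 (4.46% of all genes). In unirradiated supplemented replicate 4, where the mean of the 10 genes was 1.58, the mean of these 42 was 0.24.

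Upstream genes were counted in the same way. Of 15 serum response factor partners, ternary complex factors and CREB family genes, 1 was higher on each diet, Mrtfb (a serum response factor coactivator), at 0.50 ± 0.09 on the supplemented diet (adjusted p = 0.00146) and 0.42 ± 0.09 on the adequate diet (adjusted p = 0.00613, edgeR's quasi-likelihood test). Of 26 genes of the MAP kinase cascade, 2 were higher and 1 lower on the supplemented diet, among them Rps6ka3, a kinase downstream of ERK (0.40 ± 0.10, adjusted p = 0.0182). On the adequate diet 4 were higher and 0 lower, among them Nras (0.45 ± 0.09, adjusted p = 0.00493) and Braf (0.44 ± 0.11, adjusted p = 0.015), all by edgeR's quasi-likelihood test. Averaged over both diets, 5 of the 26 were higher and 5 lower, and 2 of the 15 higher and 0 lower. Over all genes 15.2% were called on the supplemented diet, 13.7% on the adequate diet and 31% averaged over both. Both radiation comparisons of these lists use the same libraries as those of the 10 genes.

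Candidates for a like pattern were 453 named protein-coding non-members with enough spread and a mean log2 CPM of at least 3. The 6 whose centred log2 CPM lay nearest the mean of the 10 genes over the 16 libraries were Ccn1, Atf3, Trim30d, Dusp8, Aplp1 and Slc20a1. Ccn1 and Atf3 are themselves on the list of other immediate early genes counted above. The root mean square difference was 0.39 for Ccn1, 0.48 for Atf3, 0.59 for Trim30d, 0.60 for Dusp8, 0.62 for Aplp1 and 0.64 for Slc20a1, on the log2 scale, where the mean of the 10 itself had an SD of 0.62. A gene level over all 16 libraries would lie about as far from the mean of the 10 as that SD. Of the 6, only Ccn1 and Atf3 were clearly nearer than that. Ccn1, a secreted matrix protein, had 6.75, 9.67, 11.6 and 10.8 CPM in irradiated supplemented mice, against 18.4, 8.43, 40.5 and 46.7 CPM in unirradiated supplemented mice. Atf3, a stress-induced transcription factor, had 5.58, 9.802, 12.3 and 17.1 CPM in irradiated supplemented mice, against 27.1, 15.9, 46.2 and 38.5 CPM in unirradiated supplemented mice. Within unirradiated supplemented mice, replicates 3 and 4 were highest and replicate 2 lowest in both genes. Both were picked for nearness to the mean of the 10 in these libraries, so this order is no separate observation. Among the 10 genes themselves, Jun lay nearest the common mean, at 0.27, and Egr1 farthest, at 0.69. This distance takes in amplitude as well as pattern, and Egr1 had an SD of 1.23 over the 16 libraries. Klf6, with an SD of 0.38, lay at 0.60, about as far as a level gene would.

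Handling, stress and cell mixture were read from further lists. Their part in the values of the 10 genes was not tested. Over all genes 7.21% were called lower and 8.03% higher on the supplemented diet, and 6.58% lower and 7.13% higher on the adequate diet. On the adequate diet 29.4% of all genes had an unadjusted p under 0.05. Heat shock genes (15) had 3 lower and 0 higher on the supplemented diet in irradiated than in unirradiated mice, with Hspa1b, a near copy of Hspa1a, at -2.04 ± 0.58 (adjusted p = 0.03) and Dnaja1 at -0.56 ± 0.13 (adjusted p = 0.00851, edgeR's quasi-likelihood test), and 0 called on the adequate diet (1 with an unadjusted p under 0.05). Their summed level was 1711 to 3704 CPM in irradiated supplemented mice, against 2188 to 3011 CPM in unirradiated supplemented mice, and 2459 to 2875 CPM in irradiated adequate mice, against 2459 to 3764 CPM in unirradiated adequate mice. Values were negative for 12 of the 15 heat shock genes on the adequate diet (median -0.29) and 9 on the supplemented diet (median -0.14). Averaged over both diets, 6 of the 15 were lower and 0 higher, where 15.3% and 15.7% of all genes were. In unirradiated supplemented replicate 4 the heat shock mean was 0.04 and the hypoxia mean -0.05. Of 14 hypoxia genes, 2 were lower and 0 higher on the supplemented diet, Ldha at -0.88 ± 0.22 and Pgk1 at -0.76 ± 0.23. On the adequate diet 4 were lower and 2 higher, the higher being Hk2 (0.71 ± 0.14) and Bnip3 (0.92 ± 0.26). Values were positive for 7 of the 14 on the supplemented diet (median 0.09) and 9 on the adequate diet (median 0.36). Averaged over both diets, 6 of the 14 were higher and 4 lower, where 15.7% and 15.3% of all genes were. Their summed level was 1013 to 2104 CPM in irradiated supplemented mice, against 1902 to 2163 CPM in unirradiated supplemented mice, and 1178 to 2048 CPM in irradiated adequate mice, against 1631 to 2126 CPM in unirradiated adequate mice. Ldha alone ran between 388 and 1136 CPM in single libraries, and Hilpda was at 0 in some libraries.

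Cell type markers also differed between doses. Over all genes 15.2% were called on the supplemented diet and 13.7% on the adequate diet. Red blood cell markers were lower in 5 of 5 on both diets, at a sum of 3.61 to 28.1 CPM in irradiated supplemented mice, against 120 to 393 CPM in unirradiated supplemented mice, and 3.28 to 8.62 CPM in irradiated adequate mice, against 365 to 591 CPM in unirradiated adequate mice; Hba-a2 and Hbb-bt, each a near copy of another globin gene, were at 0 in some libraries. Of 6 tested macrophage and neutrophil markers 3 were higher on each diet, the 6 summing to 260.3 to 384 CPM in irradiated supplemented mice, against 137 to 215 CPM in unirradiated supplemented mice, and 203 to 283 CPM in irradiated adequate mice, against 133 to 188 CPM in unirradiated adequate mice. S100a8 and S100a9, which were not tested, were at 0 in some libraries. Of 8 fibroblast markers 2 were higher on each diet, at a sum of 1554 to 2080 CPM in irradiated supplemented mice, against 1111 to 1576 CPM in unirradiated supplemented mice, and 931 to 2156 CPM in irradiated adequate mice, against 785 to 1121 CPM in unirradiated adequate mice. Of 6 tested B and plasma cell markers 3 were lower on the supplemented diet, the 6 summing to 242 to 301 CPM in irradiated mice, against 289 to 511 CPM in unirradiated mice. On the adequate diet 5 were lower and 1 higher, at 195 to 243 CPM in irradiated mice, against 317 to 541 CPM in unirradiated mice. Ms4a1, which was not tested, was at 0 in some libraries.

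Of 10 smooth muscle markers 1 was lower on each diet, at a sum of 1021 to 1382 CPM in irradiated supplemented mice, against 874 to 1345 CPM in unirradiated supplemented mice, and 962 to 1657 CPM in irradiated adequate mice, against 1095 to 1418 CPM in unirradiated adequate mice. Of 8 T cell markers 1 was lower on the supplemented diet, and 2 were higher and 1 lower on the adequate diet. Their sum was 51.98 to 93.9 CPM in irradiated supplemented mice, against 65.2 to 89.03 CPM in unirradiated supplemented mice, and 60.1 to 78.1 CPM in irradiated adequate mice, against 60.6 to 69.01 CPM in unirradiated adequate mice. By edgeR's quasi-likelihood test 0 of 8 endothelial and 0 of 12 enterocyte markers were called on either diet (unadjusted p under 0.05 on the supplemented diet in 0 endothelial and 2 enterocyte markers, and on the adequate diet in 1 and 2). Over all genes 15.2% were called on the supplemented diet and 13.7% on the adequate diet, and 29.3% and 29.4% had an unadjusted p under 0.05. Endothelial sums were 194 to 243 CPM in irradiated supplemented mice, against 187 to 282 CPM in unirradiated supplemented mice, and 170 to 252 CPM in irradiated adequate mice, against 172 to 209 CPM in unirradiated adequate mice. Enterocyte sums were 16415 to 66434 CPM in irradiated supplemented mice, against 31751 to 41784 CPM in unirradiated supplemented mice, and 18455 to 52620 CPM in irradiated adequate mice, against 34809 to 44328 CPM in unirradiated adequate mice. In unirradiated supplemented replicate 4, where the mean of the 10 genes was the highest of 16, the smooth muscle mean was 0.11, the enterocyte mean 0.10, the endothelial mean -0.08, the T cell mean -0.08, the fibroblast mean -0.34 and the macrophage and neutrophil mean -0.45. Its red blood cell mean of 1.37 (120 CPM) and its B and plasma cell mean of -0.03 (289 CPM) were the lowest of the 8 unirradiated libraries.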

How the data were processed

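Libraries of rRNA-depleted, fragmented RNA were made with a small RNA kit protocol, per the labels' protocols. Per the submitters' processing notes, Bowtie2 2.2.9, RSEM 1.3.0, edgeR 3.2.4 and build NCBIM37 were named. The authors deposited RSEM expected counts (estimated counts) per gene, with effective lengths in bases, per the file headers; only these columns were used. Expected counts were rounded. Symbols came from a GENCODE M21 annotation, which matched 32897 identifiers and left 4723 (4.4 to 8.41% of counts per library) unnamed. edgeR 4.0.16 in R 4.3.3 fitted the 4 group means over all 16 libraries (TMM scaling, filterByExpr, robust quasi-likelihood test, two-sided, Benjamini-Hochberg over 16558 genes, threshold 0.05). Log2 CPM used a prior count of 2. Errors on log2 fold changes are standard errors. The fit was tested on simulated data for the adequate diet, where 58% of 2-fold and 95% of 4-fold changes were recovered among 16325 genes. The simulation gave every gene the same dispersion. In the data the SD within groups was 0.97 for Egr1 and 0.82 for Nr4a1, against a median of 0.30 over all tested genes. The recovery rates therefore do not carry over to genes of such spread. Alternatives were RLE and upper-quartile scaling, DESeq2 1.42.0, limma 3.58.1 voom, no filter, only the groups compared, leaving out each library, and leaving out the 3 libraries under 4000000 counts. The members and lists were chosen with earlier results of these data known. Named genes are all 10 members, up to 4 called genes with the smallest p from each further gene list, and the 6 candidates nearest the mean of the members by root mean square difference. The gene annotation is of another build than the files, so promoters are given in their own build only. One marker of a cell type list is not reported here.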

Additional observations from a re-analysis of the deposited data

Results flagged for a closer look

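In 4 of the 40 sets of 4 libraries (each gene in each group), 1 library stood apart from the rest by Dixon's test at its 95% value of 0.829; chance gives about 5% of sets. Fosb in unirradiated supplemented replicate 4 had 17.2 CPM, with the nearest library at 3.30 CPM. Jun in irradiated supplemented replicate 1, a library under 4000000 counts, had 41.4 CPM, with the nearest at 80.95 CPM. Egr1 in irradiated adequate replicate 4 had 32.1 CPM, with the nearest at 19.7 CPM. Jun in unirradiated adequate replicate 2 had 99.1 CPM, with the nearest at 63.7 CPM.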

How the results depend on the processing

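Over the 10 genes and 7 comparisons, 1223 of 1260 alternative values kept their status as called or not called. A call was lost in 31 and gained in 6. Of called values 0 changed sign, and 28 uncalled values did. Most of the 1260 belong to values not called in the main fit, so the 1223 do not measure how stable the calls are. On the supplemented diet the call of Nr4a1 held in 4 of 15 alternatives and those of Ier2 and Zfp36 in all 15. On the adequate diet that of Klf6 held in 11 of 15. On the supplemented diet the count of genes called between doses was 5 and became 3 when only the groups compared entered the fit; leaving out single libraries gave 2 to 6. On the adequate diet it was 1 and became 0 without the 3 libraries under 4000000 counts; leaving out single libraries gave 0 to 1. Averaged over the diets it was 4, and 2 to 5 without single libraries. The cause of these changes was not tested. The count of genes with a spread above the median was 9, 9 under RLE scaling and 10 without the 3 shallow libraries. No paired analysis was possible because the labels give no replicate numbers, and the numbers used here follow the order of the samples. Counts as low as 1 (Fosb) limit precision in the shallow libraries.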
